A study of Homo sapiens with 4 samples.

Results

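The human HOX genes stand in 4 clusters, and the peaks of a chromatin immunoprecipitation labelled PD-L1 were read over all of them. Members were the protein-coding genes of the RefSeq table whose symbol is HOXA, HOXB, HOXC or HOXD followed by a number. There were 39 such genes among 19974 protein-coding genes of chromosomes 1 to 22 and X: 11 in HOXA, 10 in HOXB, 9 in HOXC and 9 in HOXD. The cells were an untreated subclone of MDA-MB-231, an established line of triple-negative breast cancer, labelled wild type. Chromatin of 2 ChIP samples was precipitated with an antibody against the HA tag, and each sample had an input library. Both ChIP samples belong to the same group, so all comparisons below are between genomic regions or between replicates. The line is a tumour model and 1 subclone of it, and the labels do not say how the HA tag was introduced. No mock precipitation was analysed here, so in every result below recovery of chromatin without the target cannot be told apart from binding.

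HOX genes encode homeodomain transcription factors that set the identity of body segments along the head-to-tail axis. Within a cluster the genes lie in the order of the body levels they pattern, from the anterior low-numbered genes to the posterior high-numbered ones. Genes with the same number in different clusters are paralogues, which arose by duplication of an ancestral cluster. Polycomb and Trithorax proteins keep the clusters silent or active as blocks of chromatin in adult cells, and shifts in HOX expression are common in breast cancers. PD-L1, the product of CD274, is an immune checkpoint ligand best known at the cell surface.

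Each replicate was deposited as 1 list of broad peaks, with 166548 and 93591 peaks on chromosomes 1 to 22 and X in replicates 1 and 2. Fold enrichment, the authors' ratio of signal to background at a peak, had a median of 3.14 in replicate 1 and 2.27 in replicate 2. The −log10 q-value of a peak had a median of 1.91 in replicate 1 and 1.80 in replicate 2, so most peaks lay near the lower end of each list. Read depth is unknown, because the lists hold no counts. Peak names of replicate 2 include "Merge", which the labels do not explain, so whether the lists are independent was not tested, and every overlap below rests on this. Since fold was set by each caller run on its own libraries, fold was compared within a list and not as a level between lists.

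The 4 clusters were dense with peaks of low enrichment in both replicates, and HOXB was the cluster that stood out least from its surroundings. Taken from the first to the last HOX gene (the cluster body), the clusters together held 120 peaks of replicate 1, or 227 peaks per Mb, against 88.8 per Mb in the 100 kb on each side and 55.0 per Mb over the genome. In replicate 2 the bodies held 46 peaks, or 87.1 per Mb, against 38.8 per Mb in the flanks and 30.9 per Mb over the genome. Density in the bodies was thus 2.56 and 2.25 times that of the flanks in replicates 1 and 2, and 4.13 and 2.82 times that of the genome. Exact Poisson 95% intervals, which cover counting error only, were 188 to 272 per Mb in bodies against 69.3 to 112 per Mb in flanks in replicate 1. In replicate 2 they were 63.8 to 116 per Mb in bodies against 26.3 to 55.0 per Mb in flanks. The intervals of bodies and flanks did not overlap in either list. With 1 list per replicate and both from the same group, no test over samples was possible, and these ratios are descriptions.

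**Figure D1:**
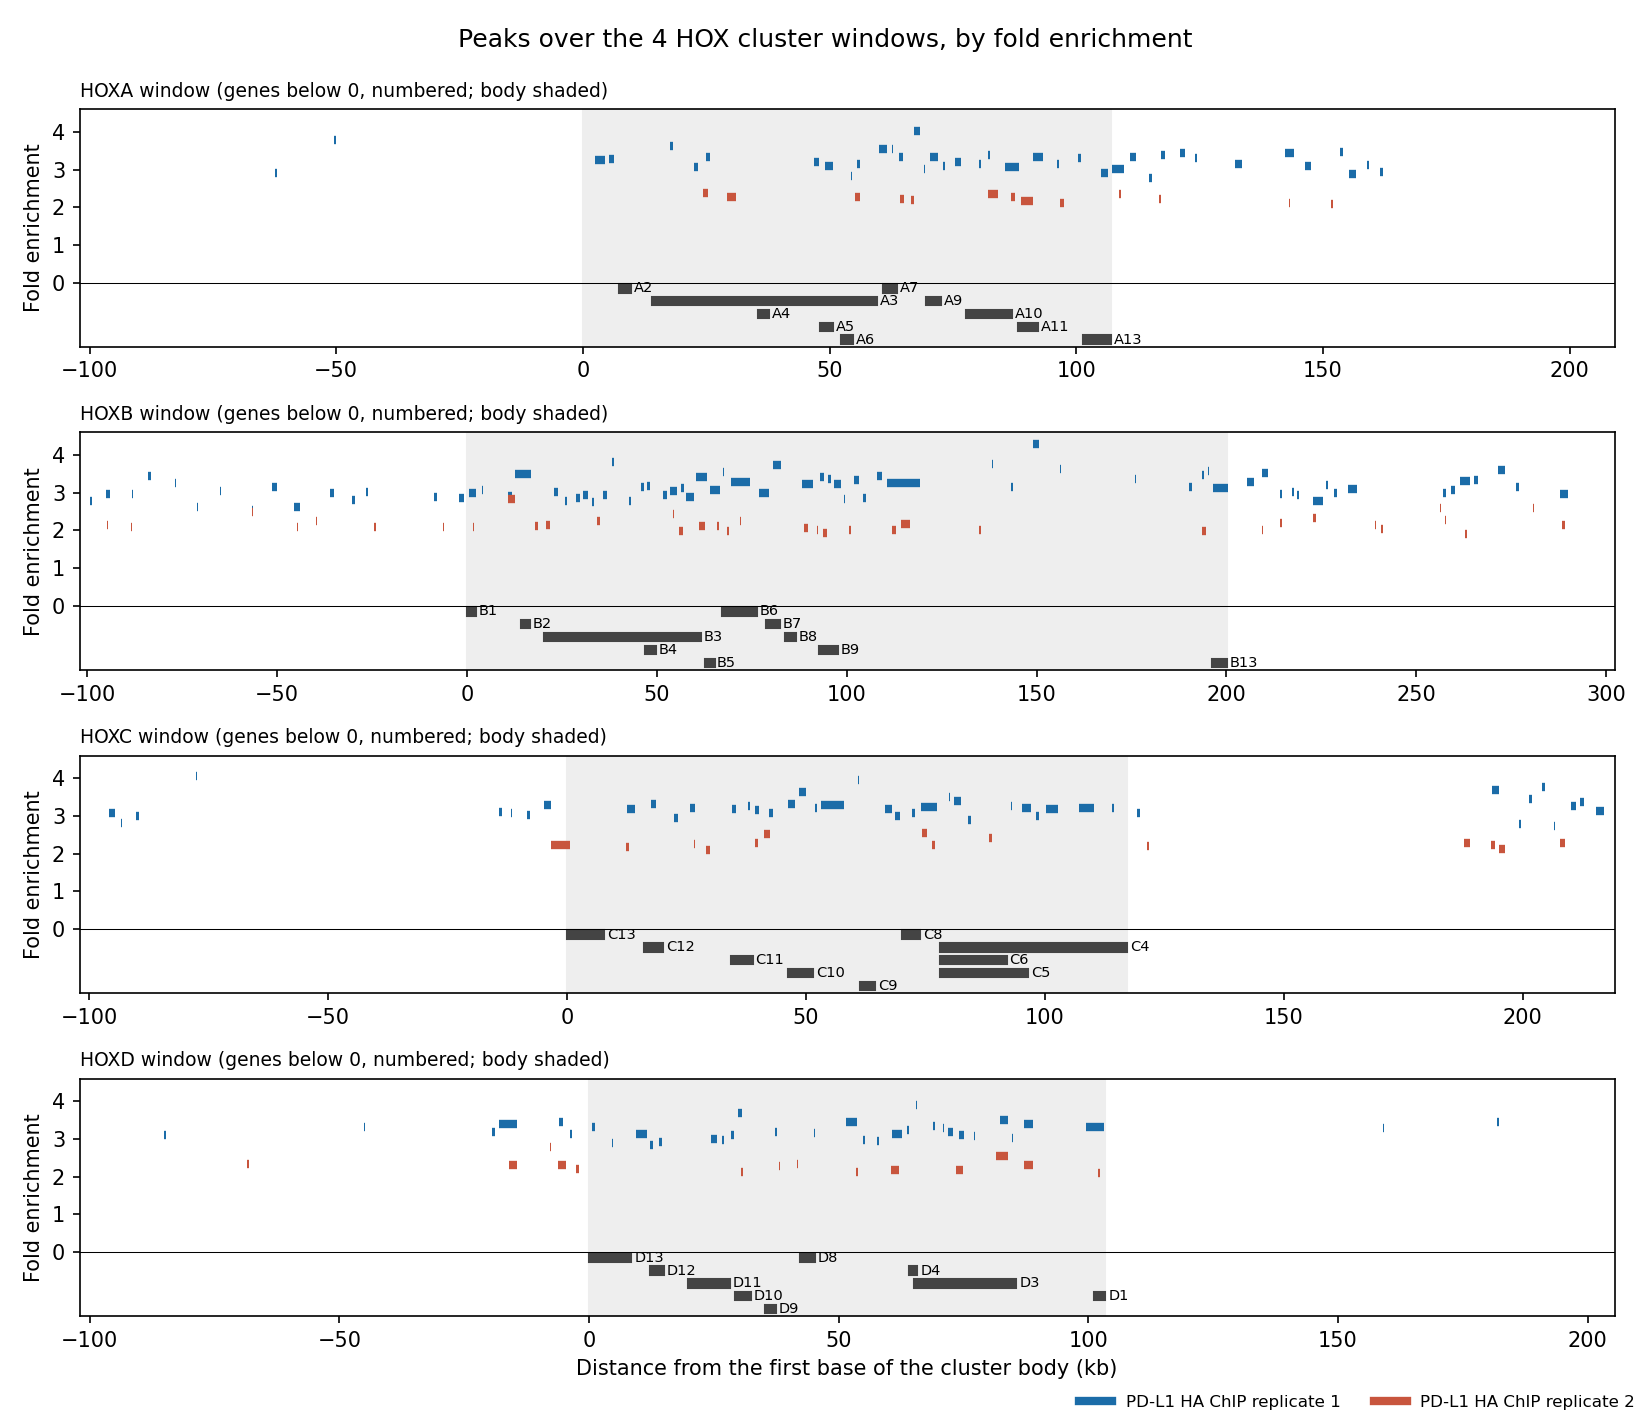
Peaks of replicate 1 (blue) and replicate 2 (red) over each HOX cluster and 100 kb on each side. The x axis is the distance in kb from the first base of the cluster body, and the y axis is the authors' fold enrichment. The body is shaded and dark bars below 0 mark HOX genes. Peaks crowd over the shaded bodies, with long empty stretches beyond HOXC4 and HOXD1 in replicate 1.

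The map of peaks over the 4 windows showed that the bodies differed little in density and the flanks differed much. HOXD (chr2:176087487-176190907) held 26 peaks of replicate 1 in its body, or 251 per Mb (95% interval 164 to 368), against 8 in its flanks, or 40 per Mb (17.3 to 78.8). HOXA (chr7:27092993-27200091) held 24 in its body, or 224 per Mb (144 to 333), against 15 in its flanks, or 75 per Mb (42.0 to 124). HOXC (chr12:53938831-54056030) held 26 in its body, or 222 per Mb (145 to 325), against 17 in its flanks, or 85.0 per Mb (49.5 to 136). These 3 clusters had body intervals wholly above their flank intervals in replicate 1. HOXB (chr17:48528526-48728750) held 44 in its body, or 219.8 per Mb (159.7 to 295), against 31 in its flanks, or 155 per Mb (105 to 220.0), and these intervals overlapped. All 4 bodies lay between 219.8 and 251 peaks per Mb, and their intervals overlapped one another.

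Replicate 2 gave the same order of body and flanks in each cluster at smaller counts. The bodies of HOXA, HOXC and HOXD held 9 peaks each, or 84.0, 76.8 and 87.0 per Mb, against 4, 5 and 5 peaks in the flanks, or 20, 25 and 25 per Mb. HOXB held 19 peaks in its body, or 94.9 per Mb (57.1 to 148), against 17 in its flanks, or 85.0 per Mb (49.5 to 136). Body and flank intervals overlapped in each cluster of replicate 2. Overlap of separate intervals does not decide whether a body and its flanks differ, and the difference was not tested for single clusters. The ratio of body to flanks was 2.99 and 4.20 in HOXA, 2.61 and 3.07 in HOXC, and 6.28 and 3.48 in HOXD, in replicates 1 and 2. In HOXB it was 1.42 and 1.12.

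The flat profile of HOXB went with a chromosome that carried many peaks. On chromosome 17 the lists held 106 and 57.9 peaks per Mb, against 46.2 and 25.8 on chromosome 7, 63.8 and 34.4 on chromosome 12, and 54.0 and 29.6 on chromosome 2. Relative to its own chromosome, the HOXB body had 2.06 and 1.64 times the density in replicates 1 and 2. The corresponding ratios were 4.85 and 3.25 for HOXA, 3.48 and 2.23 for HOXC, and 4.66 and 2.94 for HOXD. The HOXB body is also longer, because HOXB13 stands far from HOXB9. When HOXB was taken from HOXB1 to HOXB9, a choice made after its values were seen, its densities were 296 and 143 peaks per Mb in the lists of replicates 1 and 2, against 152 and 50.8 per Mb between HOXB9 and HOXB13.

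**Figure D2:**
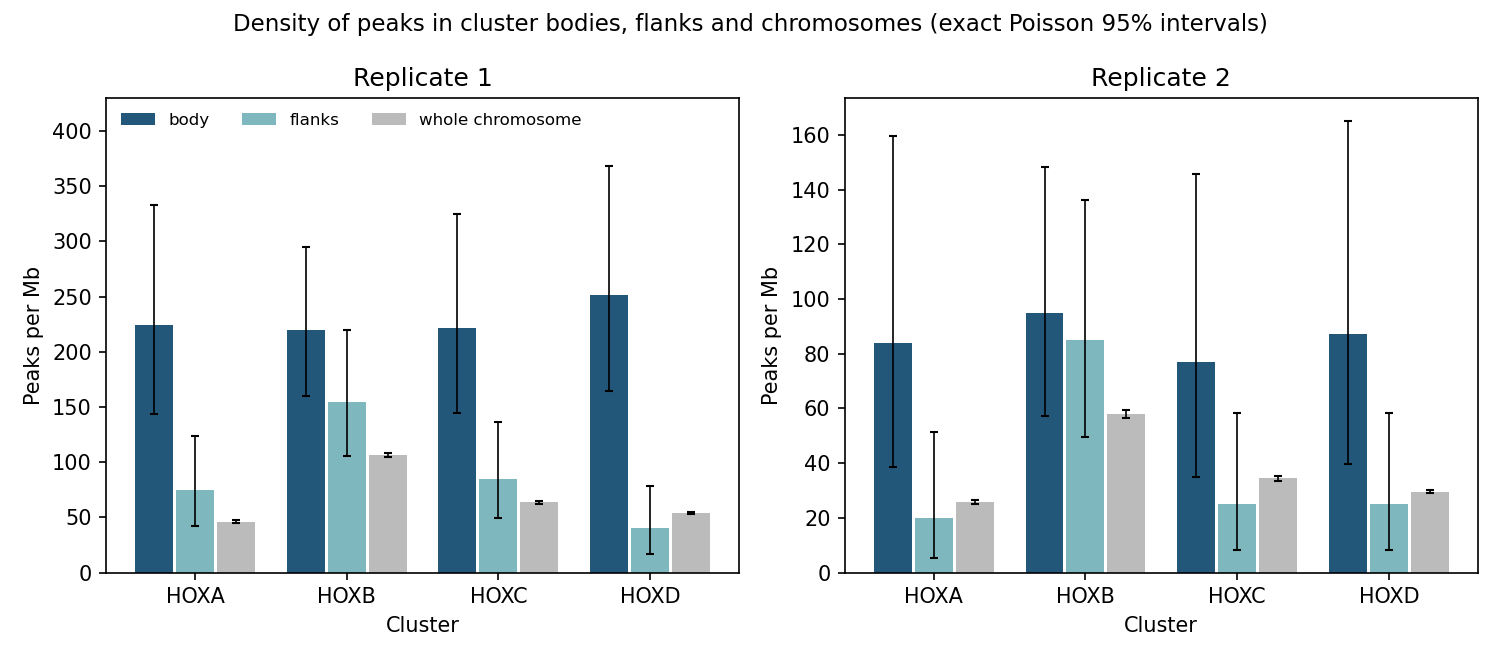
Peaks per Mb in the body of each HOX cluster, in its flanks of 100 kb on each side and over its whole chromosome, for replicate 1 (left) and replicate 2 (right). Bars start at 0, and lines are exact Poisson 95% intervals that cover counting error only. Bodies stand at 219.8 to 251 peaks per Mb in replicate 1 and at 76.8 to 94.9 in replicate 2, and the flanks of HOXB are the highest of the 4 in both lists.

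Many other gene-dense stretches of the genome held as many peaks as the HOX clusters, or more. Each chromosome was divided into tiles as long as a given cluster body, and the peaks in each tile were counted. As many peaks as in the body, or more, were found in 5.96% of tiles for HOXA, 5.05% for HOXB, 5.91% for HOXC and 3.62% for HOXD in replicate 1. In replicate 2 the shares were 13.4%, 9.74%, 15.1% and 12.7%. Among tiles with at least 8 protein-coding genes, the shares were 42.3%, 24.0%, 38.6% and 21.7% in replicate 1, and 60.7%, 45.9%, 62.6% and 53.3% in replicate 2. In replicate 1 the HOX bodies were above the median of gene-dense stretches, and in replicate 2 the HOXA and HOXC bodies, with 9 peaks each, were below the medians of 10 and 11. In replicate 2 the HOXB body, with 19 peaks, was above its median of 17, and the HOXD body, with 9, was at its median of 9.

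Flanks were unequal on the 2 sides of HOXA and HOXD. The low-coordinate side of HOXA had 2 peaks of replicate 1 and 0 of replicate 2, against 13 and 4 on the side of HOXA13, where EVX1 and the long non-coding RNA HOTTIP lie. Beyond HOXD13, the side of EVX2 had 6 peaks of replicate 1 and 5 of replicate 2, against 2 and 0 on the side of HOXD1. In HOXA and HOXD, peaks of the flanks lay mostly beside the posterior genes. HOXC did not share this, with 8 peaks of replicate 1 and 0 of replicate 2 on the side of HOXC13, against 9 and 5 on the side of HOXC4. That 0 leaves out a replicate 2 peak of 4086 bp (chr12:53935391-53939476), which crossed the edge of the body and was counted there. Replicate 2 covered 3.44% of the flank on the side of HOXC13 and 4.86% of that on the side of HOXC4. In HOXA and HOXD the counts of 0 allow up to 36.9 peaks per Mb as the upper exact Poisson bound. That is above the 20 and 25 per Mb that their flanks had in replicate 2 over both sides. The longest stretch with no peak of replicate 1 in any window was 73.7 kb beyond HOXC4, where replicate 2 had none for 66.0 kb. In replicate 1, 55.9 kb starting at the end of HOXD1 were also empty.

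Shared regions, the unions of overlapping peaks that hold at least 1 peak of each replicate, numbered 30 in the bodies and 15 in the flanks. Their density was 56.8 per Mb in the bodies, against 18.8 per Mb in the flanks and 15.1 per Mb over the genome. HOXA had 6 in its body and 2 in its flanks, HOXB 11 and 10, HOXC 6 and 1, and HOXD 7 and 2. Of the peaks of replicate 2 in the bodies, 32 of 46 (69.6%, Wilson 95% interval 55.2% to 80.9%) overlapped a peak of replicate 1, against 15 of 31 (48.4%, 32.0% to 65.2%) in the flanks and 52.0% over the genome. Of the peaks of replicate 1 in the bodies, 30 of 120 (25.0%, 18.1% to 33.4%) overlapped a peak of replicate 2, against 16 of 71 (22.5%, 14.4% to 33.5%) in the flanks and 28.7% over the genome. The first share and its interval lay above the genome's 52.0%, while the interval of the second held the genome's 28.7%. Body and flank intervals overlapped in both lists. Replicate 1 covered 27.3% of the bases of the bodies, against 8.31% in the flanks and 4.94% over the genome. The overlap to be had from such coverage alone was not tested.

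By bases, the replicates met over a small part of each body. HOXD was covered over 22.6% by replicate 1, 8.59% by replicate 2 and 6.02% by both. HOXA was covered over 22.7%, 10.6% and 2.91%, HOXB over 31.4%, 8.02% and 4.43%, and HOXC over 28.5%, 5.75% and 2.63%. Of the bases of replicate 2, 70.1% lay within peaks of replicate 1 in HOXD, 55.2% in HOXB, 45.6% in HOXC and 27.4% in HOXA. Of the bases of replicate 1, 26.7% lay within peaks of replicate 2 in HOXD, 14.1% in HOXB, 12.8% in HOXA and 9.23% in HOXC. HOXD was highest by both shares, while the lowest was HOXA by the bases of replicate 2 and HOXC by those of replicate 1.

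Nearly every HOX gene lay near a peak of replicate 1, and a little more than 50% of them near a peak of replicate 2. Within the gene span and 1 kb on each side, 35 of 39 HOX genes (89.7%) had a peak of replicate 1, against 79.2% of all protein-coding genes. A peak of replicate 2 was found at 21 (53.8%), against 64.1% of all protein-coding genes, and a shared region at 21 (53.8%), against 50.9%. Among genes with spans in the HOX range of 1677 to 45574 bp the shares were 77.2%, 59.8% and 49.1%, and among genes of chromosomes 2, 7, 12 and 17 they were 84.2%, 67.3% and 54.4%. HOX genes are short, with a median span of 3785 bp against 24170.5 bp for all protein-coding genes, and short spans meet fewer peaks. Among the 33 with spans up to 10 kb, 87.9% had a peak of replicate 1, 45.5% a peak of replicate 2 and 45.5% a shared region, against 69.9%, 49.4% and 42.1% of protein-coding genes of that length. The share in replicate 1 was above each of these backgrounds. The share in replicate 2 was below each of them, and the share with a shared region was above or below by a few points. Neighbours are not independent, since 21 of the 90 peaks of replicate 1 at HOX genes, and 5 of the 28 of replicate 2, reached more than 1 HOX gene.

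The 39 genes fell into 4 states. A shared region reached 21 of them, 2 had peaks of both lists that did not overlap (HOXD8 and HOXD9), 13 had peaks of replicate 1 only, and 3 had none in either list (HOXA2, HOXA4 and HOXB8). HOXC13, counted as shared, was the gene with a peak of replicate 2 and none of replicate 1 itself within 1 kb. At HOXA13, HOXB2, HOXC4, HOXC5 and HOXC6, also counted as shared, only the replicate 1 part of the shared region came within 1 kb. By cluster, shared regions reached 6 of 11 HOXA genes, 6 of 10 HOXB genes, 6 of 9 HOXC genes and 3 of 9 HOXD genes. By position on the body axis, they reached 6 of the 8 anterior genes (numbers 1 to 3), 8 of the 15 central genes (4 to 8) and 7 of the 16 posterior genes (9 to 13). Peaks of replicate 1 were at 7 of 8, 13 of 15 and 15 of 16 genes of these classes, and peaks of replicate 2 at 5, 9 and 7. The anterior class holds HOXA3, HOXB3 and HOXD3, whose RefSeq spans of 20570 to 45574 bp are among the longest of the family.

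**Figure D3:**
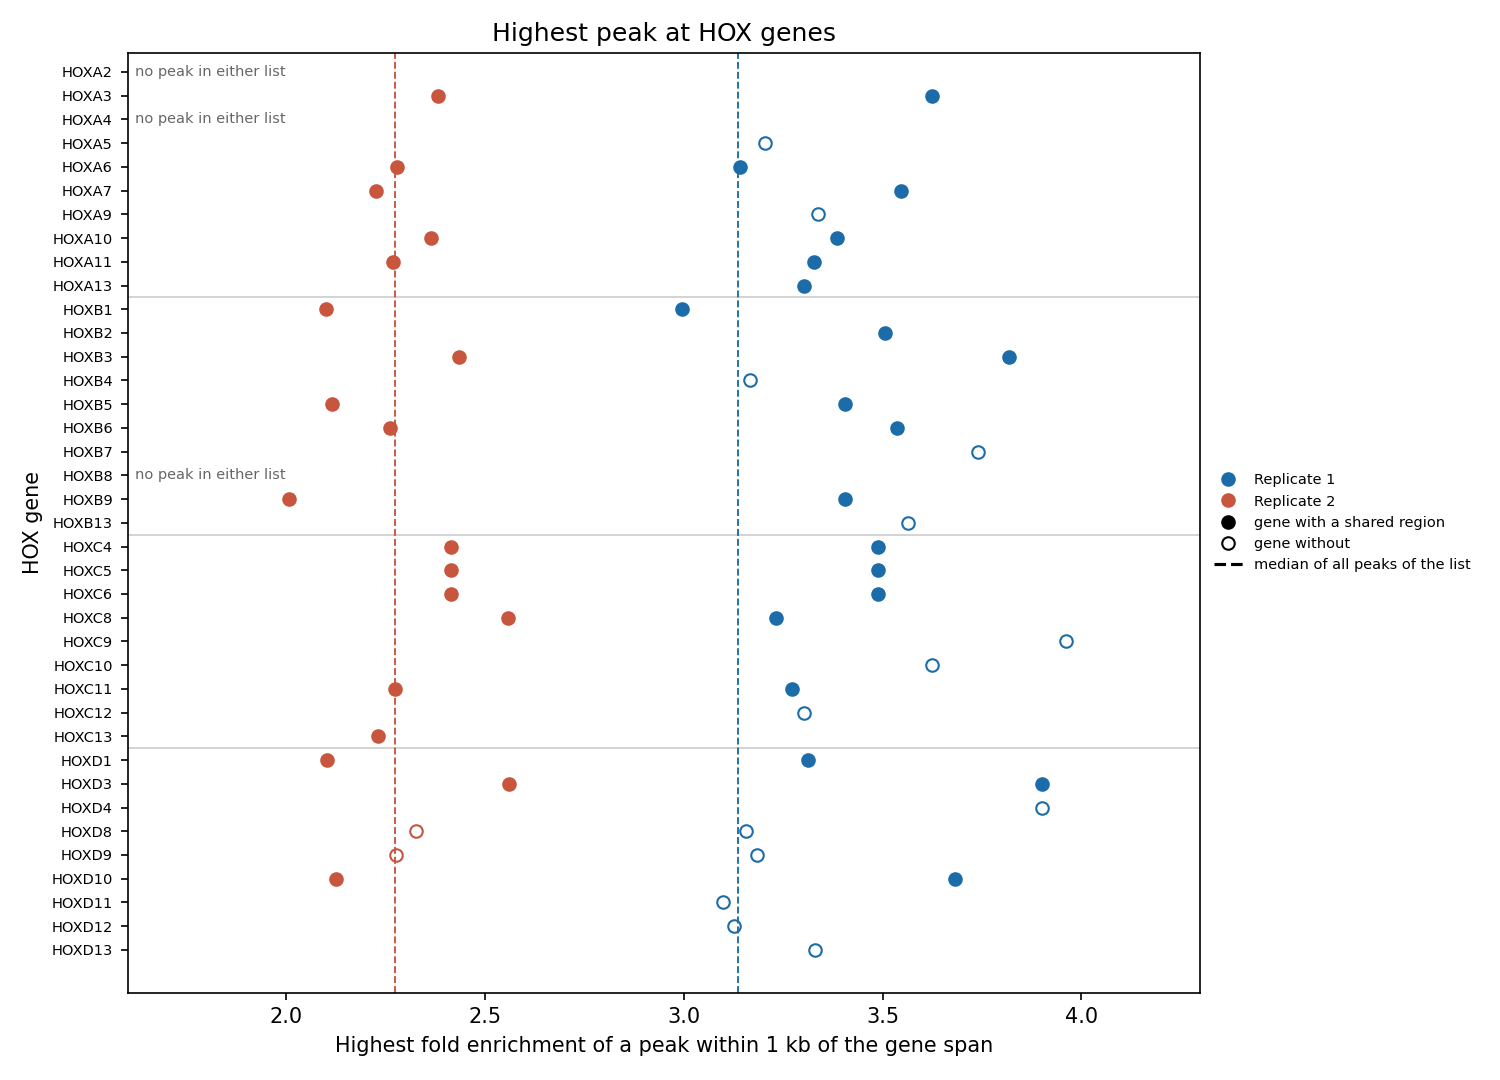
The highest fold enrichment of any peak within 1 kb of the HOX genes, in replicate 1 (blue) and replicate 2 (red), with genes in cluster order from top to bottom. Filled points mark genes reached by a shared region and open points genes without. Dashed lines are the medians of all peaks of each list, 3.14 and 2.27. Points of replicate 2 lie on both sides of their median, and 3 genes have no peak in either list.

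Anterior paralogues of group 3 were among the genes with the most peaks. Their long RefSeq spans contain, overlap or adjoin other HOX genes, so some of their peaks and shared regions are also counted at those genes. Replicate 1 covered 12.7% of the span of HOXA3, 34.6% of HOXB3 and 24.6% of HOXD3. The bodies of HOXA, HOXB and HOXD were covered over 22.7%, 31.4% and 22.6%. HOXB3 (chr17:48548870-48590241) had 15 peaks of replicate 1 with fold enrichments up to 3.82, and 5 of replicate 2 up to 2.43. HOXD3 (chr2:176152529-176173098) had 9 peaks up to 3.90 and 2 up to 2.56. HOXA3 (chr7:27107010-27152583), which in mice is needed for the thymus and parathyroids, had 8 peaks up to 3.63 and 3 up to 2.38. Each of these genes was reached by 2 or 3 shared regions, and all 3 paralogues of group 3 were shared. The 2 shared regions within HOXD3, at chr2:176161025-176162511 and chr2:176168984-176171391, had fold enrichments of 3.11 and 3.50 in replicate 1 and of 2.17 and 2.56 in replicate 2.

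The other anterior genes are short and had 0 to 2 peaks. HOXB1, which in mice patterns the hindbrain segment that gives rise to the facial nerve, had 2 peaks of replicate 1 (up to 2.995) and 1 of replicate 2 (2.098). HOXD1 had 1 peak of each, at 3.31 and 2.102, and 84.6% of its span lay within the peak of replicate 1. HOXB2 lay wholly within 1 peak of replicate 1 with a fold of 3.51. That peak belonged to a shared region of 5888 bp (chr17:48539378-48545265) whose replicate 2 peak, at 2.83, was the highest of replicate 2 in any window and lay farther than 1 kb from the gene. HOXA2, which in mice patterns the second branchial arch, had none in either list. The paralogues of group 2 thus differed, with a shared region at HOXB2 and no peak at HOXA2.

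Among central genes, a shared stretch lay near the common start of HOXC4, HOXC5 and HOXC6, whose RefSeq spans overlap. The shared region at chr12:54012873-54016291 lay between HOXC8 and the start of these 3 spans and was the only shared region of all 4 genes. Its highest peaks had folds of 3.23 in replicate 1 and 2.56 in replicate 2, and the value of 2.56 was the highest of replicate 2 in the HOXC window. Only the replicate 1 part of this region came within 1 kb of HOXC4, HOXC5 and HOXC6. The nearer replicate 2 peak ended 1069 bp before their common start. HOXC4, HOXC5 and HOXC6 had 10, 6 and 5 peaks of replicate 1 (up to 3.49 each). All 3 had the same single peak of replicate 2 (2.42), which overlapped no peak of replicate 1, so they count as 1 observation in that list. HOXA6, HOXB6 and, with that limit, HOXC6 were all shared, which made group 6 the other paralogue group reached in full. HOXB6 had 4 peaks of replicate 1 (up to 3.54) and 3 of replicate 2 (up to 2.26), and HOXB5 had 2 of each (up to 3.40 and 2.11). HOXA6 had 2 and 1 (up to 3.14 and 2.28), and HOXA7 had 3 and 1 (up to 3.55 and 2.23).

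Group 4 was shared at HOXC4 alone, through the replicate 1 part of its shared region. HOXB4, known for its action in blood stem cells, had 2 peaks of replicate 1 up to 3.17 and none of replicate 2. HOXD4, the shortest of the family at 1677 bp, had 2 up to 3.90 and none of replicate 2. HOXA4 had no peak in either list although it lies within the long span of HOXA3. HOXA5 (2 peaks up to 3.20) and HOXB7 (2 up to 3.74) had peaks of replicate 1 only, HOXB8 had none, and HOXD8 had 1 of each list, at 3.16 and 2.33, that did not touch. Being dense with peaks as a cluster thus did not extend to every gene within it.

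The posterior genes, which pattern the trunk end, the limbs and the urogenital tract, had peaks of replicate 1 at 15 of 16 and of replicate 2 at 7. HOXA10 (chr7:27170605-27179861), a regulator of uterine development, had 3 peaks of replicate 1 up to 3.38 and 2 of replicate 2 up to 2.36, in 2 shared regions. HOXA11, its neighbour, had 2 of each, up to 3.33 and 2.27, and 56.0% of its span was covered by replicate 2, the largest share of any HOX gene in that list. HOXB9 had 3 and 2 (up to 3.41 and 2.01), HOXC11 had 3 and 1 (up to 3.27 and 2.27), and HOXD10 had 2 and 1 (up to 3.68 and 2.13), each with a shared region. HOXC13, which acts in hair and nail formation, was reached by a shared region across the low-coordinate end of its span. It had 1 peak of replicate 2 at 2.23 and no peak of replicate 1 within 1 kb of the gene itself. HOXA13, a limb and genital patterning gene, had 3 peaks of replicate 1 up to 3.30 and a shared region beside it, with no peak of replicate 2 within 1 kb.

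The other posterior genes had peaks of replicate 1 only, apart from HOXD9, whose single peaks at 3.18 and 2.28 did not overlap. HOXC9 had the highest fold of any peak at a HOX gene, 3.96, from 1 peak that lay outside its span. HOXB13, a gene of the prostate and of the hindgut, had 2 peaks of replicate 1. The peak at 3.56 lay outside its span, and the other, at 3.13, covered 94.8% of it. HOXA9, which is overexpressed in many leukaemias, had 3 peaks up to 3.34, and HOXC10 had 3 up to 3.63. At the EVX2 end of HOXD, HOXD11 (3 peaks up to 3.099), HOXD12 (3 up to 3.13) and HOXD13 (3 up to 3.33) all had peaks of replicate 1 only. In paralogue group 12, neither HOXC12 (1 peak of replicate 1 at 3.30) nor HOXD12 was shared. In mice, HOXD11 to HOXD13 pattern the distal limb.

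Protein-coding neighbours in the windows differed by cluster. In the bodies, the read-through gene HOXA10-HOXA9 and the HOXB genes PRAC1 and PRAC2, which lie beside HOXB13, were each reached by a shared region. In the flanks, EVX2 beside HOXD13, and SKAP1 and TTLL6 on the 2 sides of HOXB, were shared, EVX1 beside HOXA13 had peaks of both lists that did not overlap, and LNPK and MTX2, at the outer edges of the HOXD window, had peaks of replicate 1 only. The highest peak of replicate 1 in the HOXA window, at 4.02, lay between HOXA7 and HOXA9 (chr7:27160018-27161334) with no gene within 1 kb. In the HOXC window it lay in the flank (chr12:53861111-53861387, 4.06), and in the HOXD window over HOXD3 and HOXD4 (chr2:176152909-176153165, 3.90). The highest of replicate 2 lay within HOXA3 in the HOXA window (chr7:27117325-27118345, 2.38), beside HOXC8 in the HOXC window and at EVX2 in the HOXD window (chr2:176079679-176079920, 2.79). None of these 4 windows had its highest peaks of the 2 lists in the same place.

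Over all HOX genes, enrichment was that of the lists as a whole. The 90 peaks of replicate 1 at HOX genes had a median fold of 3.18, with a range of 2.75 to 3.96, against a median of 3.14 for all peaks. The 28 peaks of replicate 2 had a median of 2.24, with a range of 1.94 to 2.56, against 2.27. The highest −log10 q at a HOX gene was 3.04 in replicate 1 and 2.75 in replicate 2. The medians at HOX genes thus lay close to those of the lists. Across the 4 windows, 37.2% of peaks of replicate 1 reached a −log10 q of 2, against 40.3% in the whole list. In replicate 2 it was 20.8%, against 30.9%.

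Promoter sequence was read for the HOX genes that have an entry in the RefSeq promoter table. Of the 39 genes, 20 had entries, with 26 distinct windows from 250 bases before to 50 after a start, against 22010 windows of all protein-coding genes. A peak of replicate 1 touched 8 of the 26 HOX windows (30.8%), against 49.9% of all windows and 60.7% of windows with GC at or above the HOX median. That GC limit was set on the comparison windows only, and HOX windows on both sides of it were counted. A peak of replicate 2 touched 4 (15.4%), against 13.3% of all windows and 13.6% of those with GC at or above the HOX median, and peaks of both touched 2 (7.69%), against 9.64% and 10.7%. Single genes weigh on these shares, since 7 of the 26 windows belong to HOXA3, and the 4 touched by replicate 2 were 3 of HOXA3 and 1 of HOXA10. For replicate 1 the share of HOX windows was thus below that of all windows. The share of HOX genes with their margins was above that of all genes. These shares cover different genes, since nearly all HOX windows are of HOXA and HOXD. Only HOXB1 in HOXB, and HOXC4 and HOXC5 in HOXC, have an entry. From a HOX start to the nearest peak of replicates 1 and 2, the median distances were 418 bp and 1207.5 bp, against 148 bp and 5607.5 bp for all starts.

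**Figure D4:**
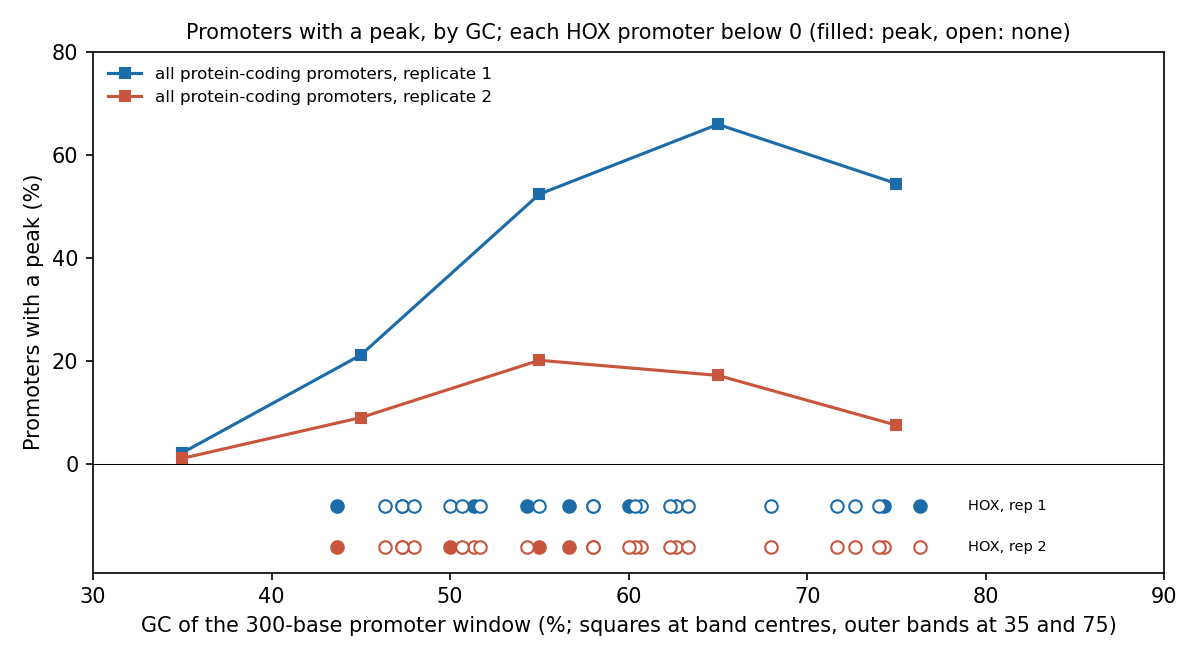
Share of all protein-coding promoter windows touched by a peak, by the GC of the window (x axis, %), for replicate 1 (blue) and replicate 2 (red). Circles below 0 are the 26 HOX windows at their own GC, filled where a peak touches them and open where none does. Among all promoters the share in replicate 1 is highest, 65.9%, between 60% and 70% GC, where 1 of 7 HOX windows is filled. Between 40% and 50% GC, 2 of 5 HOX windows are filled in replicate 1, against 21.2% of all windows.

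Base composition went with peaks among all promoters, as the plot of promoter GC shows. Of all windows below 40% GC, 2.22% were touched by replicate 1 and 1.14% by replicate 2. Between 60% and 70% GC the shares were 65.9% and 17.2%. Shares did not rise throughout, since at 70% GC or above they were 54.4% and 7.56%, and replicate 2 was highest, at 20.1%, between 50% and 60%. HOX windows had a median GC of 58.0%, with a range of 43.7% to 76.3%, against a median of 62.3% for all windows, and a median of 22.5 CpG sites, against 21. In the band from 60% to 70% GC, 1 of 7 HOX windows was touched by replicate 1 and 0 of 7 by replicate 2. In the band from 50% to 60%, 3 of 9 were touched by each list, against 52.3% and 20.1% of all windows. The band from 40% to 50% went the other way, with 2 of 5 and 1 of 5 touched, against 21.2% and 9.04%. At 70% or above, 2 of 5 were touched by replicate 1 and 0 of 5 by replicate 2, against 54.4% and 7.56%. The part of base composition in the counts at HOX genes was not tested.

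Sequences before 4 HOX starts are shown because they are the clearest cases of a promoter inside peaks and of a promoter without any. Each is the 250 bases before a RefSeq start on GRCh38.p14, 5′ to 3′ on the gene's strand. Capitals mark matches, on either strand, to CCAAT, to the TATA sequence TATAAA and to the joint HOX and PBX sequence TGATTNAT, which do not overlap here. The HOXA10 stretch (chr7:27179862-27180111, minus strand) lay wholly within peaks of both lists. Another HOXA10 window (chr7:27174271-27174570), not shown, also held TATAAA and CCAAT but was touched by no peak. Its start was 569 bp and 860 bp from the nearest peaks of replicates 1 and 2. The HOXD1 stretch (chr2:176188418-176188667, plus strand) lay wholly within a peak of replicate 1 and outside replicate 2. The HOXA4 stretch (chr7:27130758-27131007, minus strand) and the HOXD11 stretch (chr2:176107030-176107279, plus strand) held no base of any peak, and their starts were 9015 bp and 4660 bp from the nearest peak of replicate 1, and 6760 bp and 10663 bp from the nearest of replicate 2.
HOXA10: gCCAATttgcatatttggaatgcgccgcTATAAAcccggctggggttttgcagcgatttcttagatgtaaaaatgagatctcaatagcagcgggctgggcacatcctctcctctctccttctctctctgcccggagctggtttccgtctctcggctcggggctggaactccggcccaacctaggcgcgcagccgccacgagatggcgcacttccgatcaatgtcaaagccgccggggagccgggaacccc
HOXD1: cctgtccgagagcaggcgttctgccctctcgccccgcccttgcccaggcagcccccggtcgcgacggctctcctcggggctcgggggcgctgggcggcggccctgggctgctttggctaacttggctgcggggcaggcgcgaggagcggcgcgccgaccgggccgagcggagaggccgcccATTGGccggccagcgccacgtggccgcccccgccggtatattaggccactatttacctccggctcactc
HOXA4: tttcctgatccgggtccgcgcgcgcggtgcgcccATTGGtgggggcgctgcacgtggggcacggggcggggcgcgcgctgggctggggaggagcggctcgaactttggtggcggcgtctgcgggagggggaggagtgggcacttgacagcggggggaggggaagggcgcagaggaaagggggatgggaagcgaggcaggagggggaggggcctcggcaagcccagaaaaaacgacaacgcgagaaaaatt
HOXD11: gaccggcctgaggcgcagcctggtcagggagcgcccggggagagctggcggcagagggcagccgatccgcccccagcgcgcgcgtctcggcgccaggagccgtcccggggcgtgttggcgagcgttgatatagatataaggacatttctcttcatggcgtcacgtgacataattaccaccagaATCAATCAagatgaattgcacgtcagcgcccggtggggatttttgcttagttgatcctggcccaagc

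CCAAT did not separate these stretches by their peaks. Each other motif stood before a single shown stretch, so whether it goes with peaks was not tested. CCAAT stood before HOXA10 and HOXD1, which lay in peaks, and before HOXA4, which did not. It was found in 17 of the 26 HOX windows (65.4%), against 34.7% of all windows of the same length. TATAAA stood before HOXA10 and was found in 5 HOX windows (19.2%), against 9.49% of all. TGATTNAT stood before HOXD11 and was found in 2 (7.69%), those of HOXA2 and HOXD11, against 2.06% of all. A match describes letters in the window only.

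The clusters also hold 8 microRNA genes, all with a peak of replicate 1 within 1 kb. Of all microRNA genes, 42.4% had one. A peak of replicate 2 and a shared region were at 2 of the 8, MIR10B and MIR7704, against 20.6% and 18.9% of all microRNA genes. The miR-10 and miR-196 families are ancient parts of the HOX clusters, and miR-196 targets HOX messenger RNAs. The 3 MIR196 genes, in HOXA, HOXB and HOXC, yield mature microRNAs with the same seed, AGGUAGU. Mature sequences from RefSeq are shown for these and for miR-10a because 3 clusters carry a copy of miR-196 and miR-10a marks its neighbour family in HOXB, with bases 2 to 8, the seed, in capitals. The miR-196a sequence is the same from MIR196A1 and MIR196A2.
hsa-miR-196a-5p: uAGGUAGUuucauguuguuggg
hsa-miR-196b-5p: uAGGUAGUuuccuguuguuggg
hsa-miR-10a-5p: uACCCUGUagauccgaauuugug

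MIR615 in HOXC and MIR3185 in HOXB had peaks of replicate 1 only. All 3 MIR196 genes likewise had peaks of replicate 1 and none of replicate 2 within 1 kb. The MIR196B hairpin (chr7:27169480-27169563) lay within a peak of replicate 1 with a fold of 3.20, and the nearest peak of replicate 2 was 5617 bp away. MIR196A2 (chr12:53991738-53991847) was 68 bp from a peak of 4856 bp, the widest of replicate 1 in the HOXC window, with a fold of 3.30, and 10506 bp from a peak of replicate 2. MIR196A1 (chr17:48632490-48632559) was 371 bp and 2917 bp from the nearest peaks of replicates 1 and 2. MIR10B (chr2:176150303-176150412), upstream of HOXD4, was 38 bp from a peak of replicate 1 at 3.12 and 652 bp from 1 of replicate 2 at 2.17, in a shared region. MIR10A (chr17:48579838-48579947) was 194 bp and 2760 bp from the nearest peaks of replicates 1 and 2. The 2 miR-10 genes thus differed in replicate 2, with a shared region within 1 kb of MIR10B and none at MIR10A.

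Most long non-coding RNA genes of the bodies had peaks in both lists. Of 24 such genes, 20 had a peak of replicate 1, 16 a peak of replicate 2 and 12 a shared region, against 57.8%, 43.6% and 27.7% of all long non-coding RNA genes. HOTAIR, transcribed from HOXC and known for its raised level in metastatic breast cancer, had 3 peaks of replicate 1 up to 3.22 and 2 of replicate 2 up to 2.24, with a shared region at chr12:53964647-53965620. The highest folds of replicate 1 among these genes were at LINC02086 (4.29), HOXC-AS1 (3.96) and HOXA-AS3 (3.55). HOXB-AS3 had 5 and 4 peaks (up to 3.54 and 2.26) and HAGLR, beside HOXD1, had 3 and 2 (up to 3.39 and 2.30), with 3 and 2 shared regions. HOTAIRM1, beside HOXA2, had 2 peaks of replicate 1 up to 3.27 and none of replicate 2. HOTTIP, just beyond HOXA13, had 3 and 1 (up to 3.33 and 2.35) and a shared region. These genes overlap or adjoin HOX genes, and the peaks carry no strand, so a peak could not be assigned to either partner. The peak of LINC02086 (chr17:48677585-48679094), between HOXB9 and HOXB13, was the highest of replicate 1 in all 4 windows, and no peak of replicate 2 overlapped it.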

How the data were processed

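ChIP-seq peaks of 2 HA ChIP samples of MDA-MB-231 cells, each with an input, were analysed. Bowtie2 2.2.9, MACS2 2.1.1 and hg38 are named, without settings, in the submitters' processing notes. Fold enrichment (a ratio) and −log10 q-value per peak are the authors' values, in columns 7 and 9 of the deposited lists. Peak names of replicate 2 include "Merge", which the labels do not explain; if that list also holds replicate 1, the lists are not independent. Depth is unknown, and no mock precipitation or input peaks were analysed here.

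Genes and sequences came from RefSeq tables of GRCh38.p14, the hg38 build. Gene spans were extended by 1 kb and cluster bodies by 100 kb, and an overlap needed 1 bp. Flank peaks touched no base of the body. Chromosome length ran from the first to the last gene. Intervals are at 95% (exact Poisson for densities, Wilson for shares) and cover counting error only. Each replicate gave 1 list of 1 group, so no test over samples was possible and no p-value is given. Python 3.11.15, numpy 2.4.6, pandas 2.3.3, scipy 1.17.1 and matplotlib 3.10.9 were used, and overlaps were tested on simulated data. Members, lists and alternatives were chosen with earlier results of these data known. All members were counted and named, except that 1 gene is not reported here by name. Other genes were named as the highest peak of a window, as a protein-coding gene of a window or as up to 3 members of highest fold per list; HOTAIR, HOTAIRM1, HOTTIP, HAGLR, HOXB-AS3, the microRNAs and genes without a peak were named after their values were seen.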

Additional observations from a re-analysis of the deposited data

How the results depend on the processing

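Of 74 alternative values, 46 stayed within the stated spread or 1.5-fold and 28 moved. As reported, 35 HOX genes had a peak of replicate 1, 21 of replicate 2 and 21 a shared region; the 4 windows held 143.8 and 58.0 peaks per Mb, of which 24.1% and 61.0% overlapped the other list. With a −log10 q of at least 2 these became 23, 8 and 4 genes, 53.5 and 12.05 per Mb, and 5.63% and 25.0%. With the higher-fold 50% of each list, replicate 2 had 12 genes, shared regions 10, the densities were 79.1 and 18.1 per Mb, and the shares 9.52% and 41.7%. A reciprocal overlap of 50% left 7 shared genes and shares of 5.76% and 14.3%. Without a margin 13 genes were shared; with 5 kb, 34 had a peak of replicate 2 and 33 were shared. Leaving out either replicate gave 21 to 35 genes with a peak of the other. Equal numbers of peaks gave 73.8 per Mb in replicate 1 and 39.0% in replicate 2. Merging within 1 kb gave 123 per Mb in replicate 1; flanks of 50 kb and 200 kb gave 168 and 115, and no flank 227 and 87.1. Leaving out HOXB gave 44.2 per Mb in replicate 2. Lists cut by q or fold hold fewer peaks by construction. The shares of all protein-coding genes were not computed at these settings, so whether HOX genes changed more or less than other genes was not tested.

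Bodies stayed denser than flanks under all 7 settings in HOXC and HOXD in both lists, and in HOXA and HOXB in replicate 1. Equal numbers of peaks cut replicate 1 only, so in replicate 2 that setting repeated the main counts. At a −log10 q of at least 2, replicate 2 had 3 body and 0 flank peaks in HOXC, and 2 and 1 in HOXD. In replicate 2, HOXB reversed at a −log10 q of at least 2 (19.98 against 30 per Mb) and in the higher-fold 50% (9.99 against 25.0), and HOXA had no peak left at that q. No paired analysis was possible because all ChIP samples belong to 1 group. Peaks near the lower end of both lists limit every count.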

Other observations

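Other homeobox genes and the proteins that act with or on HOX genes were also read, in lists chosen with earlier results known. Of 22 other genes of the ANTP class, the homeobox class that includes HOX, 19 had a peak of replicate 1, 12 a peak of replicate 2 and 11 a shared region, against 79.2%, 64.1% and 50.9% of all protein-coding genes. DLX2 had a fold of 4.13 in replicate 1 with no peak of replicate 2 within 1 kb, NKX2-2 had 3.76 and 2.23 in replicates 1 and 2, and MSX1 had 3.74 in replicate 1 only. EN1 and DLX5 had none in either list. EVX2, beside HOXD13, had 2 peaks of replicate 1 up to 3.46 and 3 of replicate 2 up to 2.79, with a shared region, while EVX1, beside HOXA13, had 2 and 1 (up to 3.46 and 2.08) that did not overlap.

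Of 9 PBX, MEIS and PKNOX genes, whose products bind DNA together with HOX proteins, 8 had a peak of each list and 7 a shared region, against the same 79.2%, 64.1% and 50.9% of all protein-coding genes; their median span of 138745 bp is long. PKNOX2 had 81 and 41 peaks and 31 shared regions. By highest fold in replicate 1, PBX4 (4.07), PKNOX2 (3.80) and MEIS1 (3.79) led, and PBX2 had no peak. Of 20 Polycomb, Trithorax and other regulators of HOX genes, 15 had a peak of replicate 1, 12 of replicate 2 and 9 a shared region. At 20 genes, these counts lay near the 79.2%, 64.1% and 50.9% of all protein-coding genes. EZH1 was highest in replicate 1 at 4.20 (2.43 in replicate 2), followed by KMT2A (3.65) and ASH1L (3.63), and SUZ12, RING1 and CDX4 had no peak in either list.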
